A study of Homo sapiens with 6 samples.

Results

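ATM, BRCA1, CHEK2 and MDM2 are the DNA damage signalling, repair and p53-MDM2 genes described here, 4 of the 89 genes on a cancer pathway PCR array. They were taken by name from the deposited table, with earlier results of these data known. The RNA was that of Panc-1, an established line of human pancreatic carcinoma cells, and the array was run to find transcripts that differ when CaSm is raised. CaSm, also called LSm1, is an Sm-like protein of the cytoplasmic mRNA decay machinery and was studied as an oncogene. The array was run on 6 plates, with 2 plates per condition and 3 conditions. Induced cells carried a tet-on construct for full-length human CaSm and were grown with doxycycline at 1 μg/ml. Non-induced cells carried the same construct and were grown without doxycycline. Driver cells carried only the tet-on plasmid and were grown with doxycycline at 1 μg/ml. Culture lasted 4 weeks in each condition. Both lines were stably transfected pools of cells, and the CaSm line was made from the driver pool. By the paper's methods both lines were kept in G418, and the CaSm line in puromycin as well. Comparisons with driver cells therefore also differ in this selection. There was no plate of driver cells without doxycycline. Any comparison that includes non-induced cells therefore also differs in doxycycline, whose own effect cannot be told apart there.

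These genes belong to one signalling chain. Double-strand breaks activate the kinase ATM, which phosphorylates the checkpoint kinase CHK2 (encoded by CHEK2), the repair protein BRCA1 and the p53 inhibitor MDM2. CHK2 in turn acts on CDC25 phosphatases, BRCA1 and p53. MDM2 is a ubiquitin ligase that marks p53 for degradation, and p53 activates transcription of MDM2 from an internal promoter, which closes a feedback loop. Panc-1 cells are known to carry a mutated p53 gene and to lack CDKN2A. Most control of ATM and CHK2 acts on the proteins, by phosphorylation, and a transcript level does not measure it.

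Each value is a threshold cycle (Ct), the PCR cycle at which a well crosses a fluorescence threshold, so that a delay of 1 cycle means roughly 1 log2 unit less template. ΔCt is the Ct of a gene minus the plate's mean over 3 scaling genes (GAPDH, HPRT1 and B2M), so a lower ΔCt is a higher level. The scaling mean lay between 19.7 and 20.3 on the 6 plates. Of the 89 genes, 79 had a Ct under 35 on every plate, all 4 described here among them, with Ct values between 23.7 and 28.0. Plates are numbered by a date-like mark in their labels, which is called a run here and which the labels do not explain. Both tet-on CaSm conditions have runs 1 and 2, and driver cells have runs 2 and 3. The labels do not say what a run was, or whether separate cultures stand behind the plates, so the p-values measure only the spread between plates, which may be technical. The array holds no marker of pancreatic epithelium. GZMA, a marker of cytotoxic lymphocytes, had Ct values of 34.9 to 37.2, and TEK, an endothelial marker, of 33 to 40. LSM1, the CaSm gene, was not analysed here.

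In limma, no comparison gave any of the 4 genes a p-value under 0.05, before or after adjustment. A gene was called at an adjusted p-value under 0.05. In induced against driver cells 0 of 4 genes were called, beside 23.5% of the 85 genes tested. Against non-induced cells it was 0 of 4 beside 24.1% of 83 genes, and against both controls 0 of 4 beside 22.4% of 85 genes. In non-induced against driver cells it was 0 of 4 beside 7.06%. In RNA from whole cultures, fewer cells with a transcript and less of it per cell cannot be told apart. No call was made without moderation of the variance or with a trended, robust variance model either. Confidence intervals bound what the plates can show. For CHEK2 in induced against driver cells the 95% interval ran from 0.72-fold to 1.58-fold, and for ATM it ran from 0.94-fold to 2.69-fold.

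**Figure D1:**
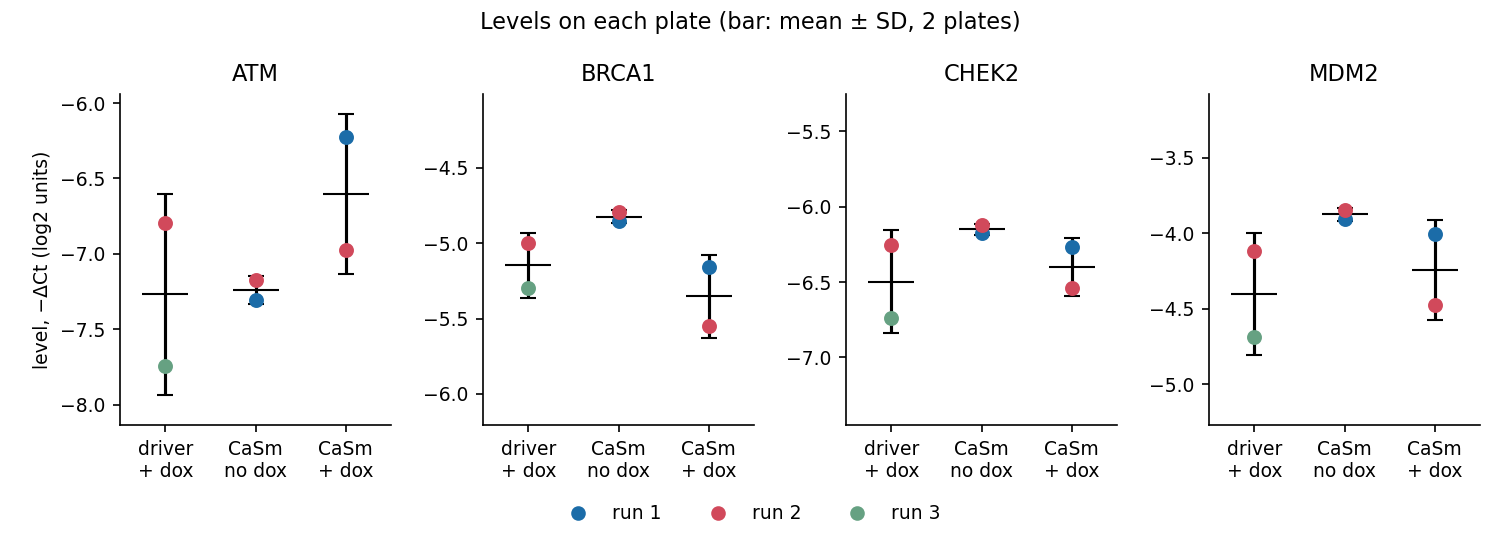
Level of each gene on each plate as −ΔCt, in log2 units, with points coloured by run and bars for the mean ± SD of 2 plates. ATM was highest on induced plate 1, while BRCA1, CHEK2 and MDM2 were highest and closest together in non-induced cells.

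ATM, the kinase at the head of the chain, had the highest mean level in induced cells. On the plates its ΔCt was 6.80 (run 2) and 7.74 (run 3) in driver cells, 7.31 (run 1) and 7.17 (run 2) in non-induced cells, and 6.23 (run 1) and 6.98 (run 2) in induced cells. Induced plate 1 stood above all other plates, and driver plate 2 lay between the induced plates. The mean ΔCt was 7.27 ± 0.67 (SD, n = 2 plates) in driver cells, 7.24 ± 0.09 in non-induced cells and 6.60 ± 0.53 in induced cells. In order of level, induced cells came first and both controls followed at nearly the same mean.

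Relative to driver cells, ATM was 1.59-fold higher in induced cells, a log2 fold change of 0.67 (standard error, SE, 0.35, limma adjusted p = 0.179). This was 1 of 4 genes past 1.5-fold, beside 37.6% of all genes tested. Relative to non-induced cells it was 1.56-fold higher (log2 fold change 0.64, SE 0.35, limma adjusted p = 0.223), again 1 of 4 genes past 1.5-fold beside 38.6% of all genes. Against both controls the difference was 1.57-fold (limma adjusted p = 0.138), 1 of 4 genes beside 36.5% of all genes. Non-induced and driver cells differed by a log2 fold change of 0.03 (SE 0.35), with an interval from 0.60-fold to 1.73-fold.

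The plates of a condition differed more for ATM than for most genes. Its SD within conditions was 0.50 log2 units, the 4th highest of 76 genes, against a median of 0.23. In run 1 the induced plate was 1.08 log2 units above the non-induced plate, and in run 2 it was 0.20 above it. In run 2 the induced plate was also 0.18 log2 units below the driver plate (a difference of −0.18). The comparison with driver cells depended on the plates, and its log2 fold change was 1.14 without driver plate 2 and 0.20 without driver plate 3. Against both controls it was 0.89 without driver plate 2 and 1.03 without induced plate 2. Each of these fits leaves 1 plate in a condition, whose spread then cannot be measured. With the run as a block the log2 fold change against driver cells was 0.04. Run 3 held driver plate 3 alone, so in any fit with the run as a block that plate carried no weight for the differences.

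BRCA1, which acts in homologous recombination repair, had its lowest mean level in induced cells. Its ΔCt was 5.0 (run 2) and 5.30 (run 3) in driver cells, 4.86 (run 1) and 4.79 (run 2) in non-induced cells, and 5.16 (run 1) and 5.55 (run 2) in induced cells. The non-induced plates were above all others, and the driver and induced plates overlapped. The means were 5.15 ± 0.21, 4.83 ± 0.04 and 5.35 ± 0.28 in the same order (SD, n = 2 plates). Against non-induced cells BRCA1 was 1.44-fold lower in induced cells (log2 fold change −0.53, SE 0.25, limma adjusted p = 0.160), the lowest adjusted p of the 4 genes in that comparison. Within run 1 this difference was −0.30 and within run 2 it was −0.75. Against driver cells the log2 fold change was −0.20 (SE 0.25, adjusted p = 0.649).

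CHEK2, the gene of the CHK2 kinase, was highest in non-induced cells, with induced cells next and driver cells last. On the plates its ΔCt was 6.26 (run 2) and 6.74 (run 3) in driver cells, 6.18 (run 1) and 6.12 (run 2) in non-induced cells, and 6.27 (run 1) and 6.54 (run 2) in induced cells. Both induced plates lay between the driver plates. The log2 fold change of induced cells was 0.10 (SE 0.26, limma adjusted p = 0.809) against driver cells and −0.25 (SE 0.25, adjusted p = 0.520) against non-induced cells.

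MDM2, the p53 ubiquitin ligase, followed the same order of conditions. Its ΔCt was 4.12 (run 2) and 4.69 (run 3) in driver cells, 3.91 (run 1) and 3.84 (run 2) in non-induced cells, and 4.01 (run 1) and 4.48 (run 2) in induced cells. The plates of induced and driver cells overlapped, and the non-induced plates lay above both. Between the controls MDM2 was 1.44-fold higher in non-induced cells (log2 fold change 0.53, SE 0.28, limma adjusted p = 0.275), the lowest adjusted p of the 4 genes between the controls. The log2 fold change of induced cells was 0.16 (SE 0.28) against driver cells and −0.37 (SE 0.28, adjusted p = 0.364) against non-induced cells.

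**Figure D2:**
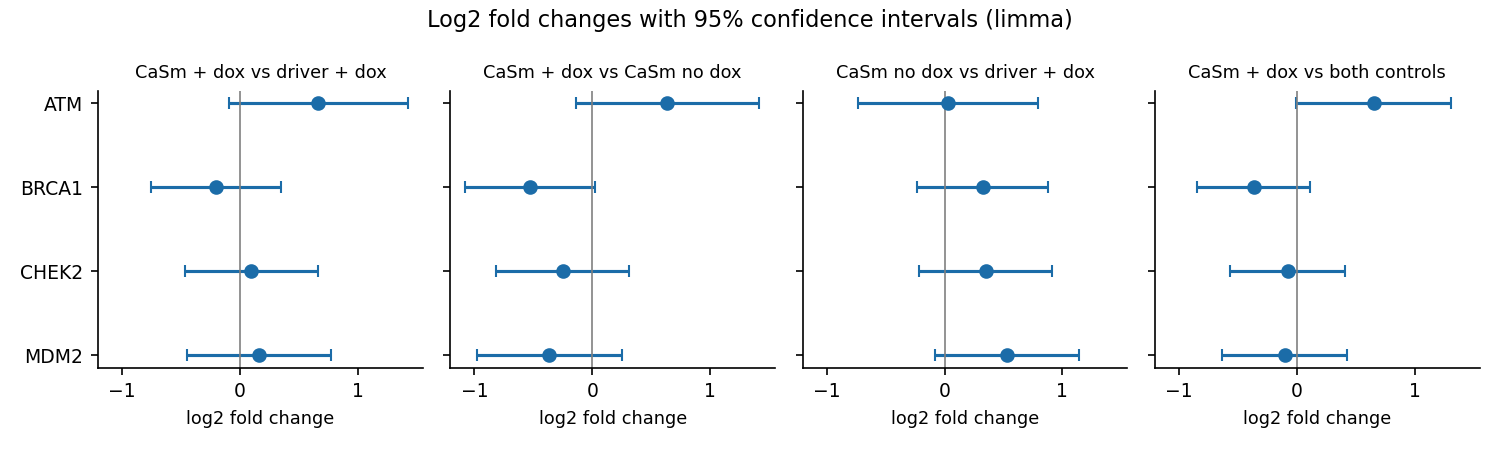
Log2 fold change of each gene (x axis, log2 units) with its 95% confidence interval from limma, in 4 comparisons named above the panels. Every interval includes 0, and ATM is the gene farthest to the right in the 3 comparisons of induced cells.

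BRCA1, CHEK2 and MDM2 all had their highest mean in non-induced cells, while the order of induced and driver cells was not the same for BRCA1 as for CHEK2 and MDM2, and these plates overlapped for each. For these 3 genes the non-induced plates overlapped neither the driver nor the induced plates. In non-induced against driver cells the plates did not overlap for 3 of 4 genes, beside 50.6% of all genes tested. In induced against non-induced cells they did not overlap for 4 of 4 genes, beside 61.4%, with ATM higher and the other 3 lower. In induced against driver cells they overlapped for all 4 genes, and 54.1% of all genes tested did not overlap. Against both controls together they overlapped for all 4, and 36.5% of all genes tested did not overlap. Over all genes tested the median log2 fold change was −0.21 against non-induced cells and 0.20 in non-induced against driver cells. The medians of the 4 genes were −0.31 and 0.34. The comparisons share plates, so their values are not independent.

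Levels relative to another gene on the same plate need no scaling gene. The Ct of ATM minus that of BRCA1 was 1.80 and 2.44 in driver cells, 2.45 and 2.38 in non-induced cells, and 1.07 and 1.43 in induced cells. Both induced plates were below all 4 control plates, so ATM was higher relative to BRCA1 by 1.02 log2 units on average. Relative to CHEK2, ATM was higher by 0.73 log2 units and relative to MDM2 by 0.76 (differences of 0.730 and 0.755), again with both induced plates beyond every control plate. BRCA1 was lower relative to CHEK2 by 0.29 log2 units on the induced plates and relative to MDM2 by 0.26, also outside the range of the controls. The Ct of CHEK2 minus that of MDM2 stayed between 2.05 and 2.28 on all 6 plates, a span of 0.23 cycles. In all, 5 of the 6 pairs were outside the control range, beside 52.1% of the 2850 pairs of genes on the array with a Ct under 35 on every plate. For 2 plates set against 4, an exact two-sided permutation test of the difference in means cannot give a p-value under 0.0667. It gave 0.0667 for the 3 pairs with ATM and for BRCA1 with CHEK2 (0.10 after Benjamini-Hochberg adjustment over the 6 pairs), 0.133 for BRCA1 with MDM2 and 0.80 for CHEK2 with MDM2. With the mean of BRCA1, CHEK2 and MDM2 as the scaling value, a choice made after seeing the data, the log2 fold change of ATM was 0.65 against driver cells (limma adjusted p = 0.0913), 1.02 against non-induced cells (adjusted p = 0.0233) and 0.83 against both controls (adjusted p = 0.0255).

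**Figure D3:**
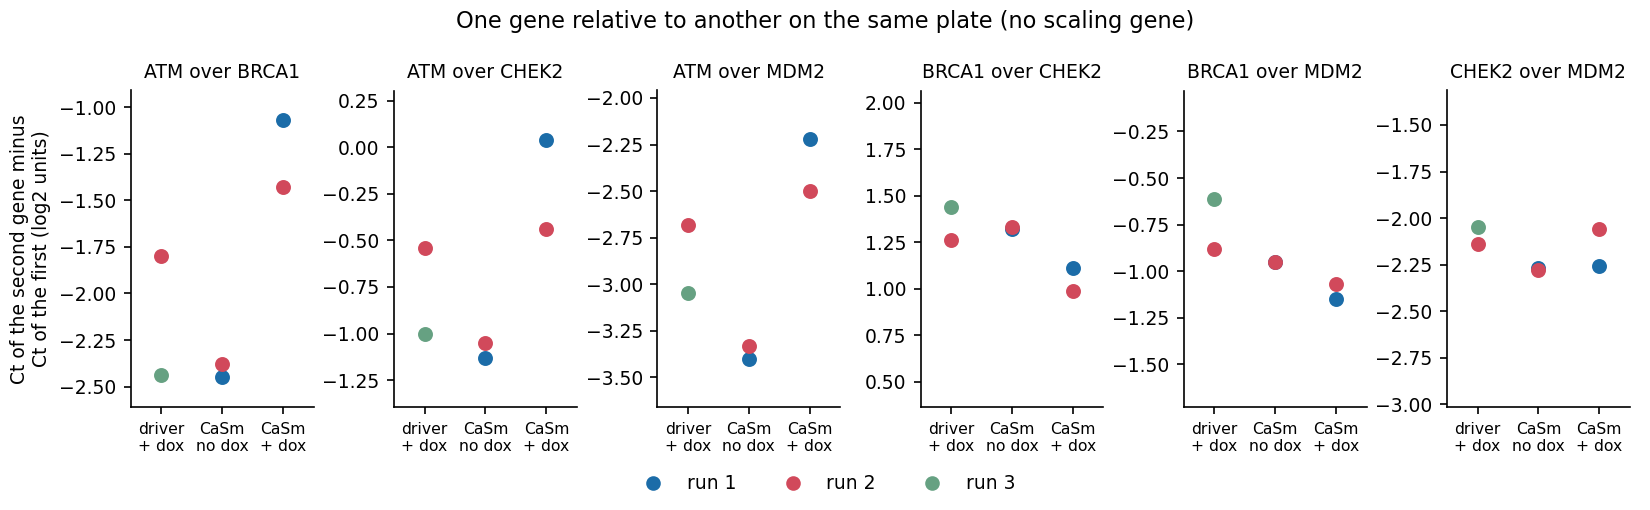
Level of one gene relative to another on the same plate, as the Ct of the second gene minus the Ct of the first in log2 units, by condition and coloured by run. ATM over BRCA1, CHEK2 and MDM2 is higher on both induced plates than on the 4 control plates, and CHEK2 over MDM2 spans 0.23 units.

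The choice of scaling genes moved all 4 genes together. Relative to their own mean, the scaling genes themselves differed by condition. Mean ΔCt in induced, non-induced and driver cells was 0.10, 0.50 and 0.56 for B2M and −1.78, −2.12 and −2.17 for GAPDH. For HPRT1 it was 1.68, 1.615 and 1.61. ACTB (−2.19, −3.87 and −3.84) and RPL13A (0.51, 1.74 and 2.06), which another scaling added to these genes, moved in opposite directions in induced cells. Scaling to B2M alone shifted the median log2 fold change of all genes against driver cells from −0.08 to −0.55, and scaling to GAPDH alone shifted it to 0.32. With B2M alone, the log2 fold change of BRCA1 passed the threshold for induced cells both against driver cells (−0.67, limma adjusted p = 0.0316) and against non-induced cells (−0.93, adjusted p = 0.0070). CHEK2 (−0.66, adjusted p = 0.0319) and MDM2 (−0.77, adjusted p = 0.0234) did so as well against non-induced cells, while ATM was at 0.24. Of all genes tested, B2M alone called 44 of 85 against driver cells and 42 of 83 against non-induced cells, 40 of these 42 lower. With GAPDH alone, ATM passed it against driver cells (1.06, limma adjusted p = 0.0093) and against non-induced cells (0.97, limma adjusted p = 0.0278), and none of the other 3 did. GAPDH alone called 29 of 85 genes against driver cells and 15 of 83 against non-induced cells. In these fits limma gave all 4 genes the same SE (0.34). Without moderation, under the main scaling, the SE of ATM was 0.50, so these calls rest on a spread smaller than its own. The plate median of all genes under 35 gave a call for ATM against non-induced cells (0.94, limma adjusted p = 0.0422), with 22 of all 83 genes called. ATM had a positive log2 fold change against each control under these 6 scalings, whereas the sign for CHEK2 and MDM2 against driver cells and the sign for BRCA1 against driver cells depended on the scaling.

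**Figure D4:**
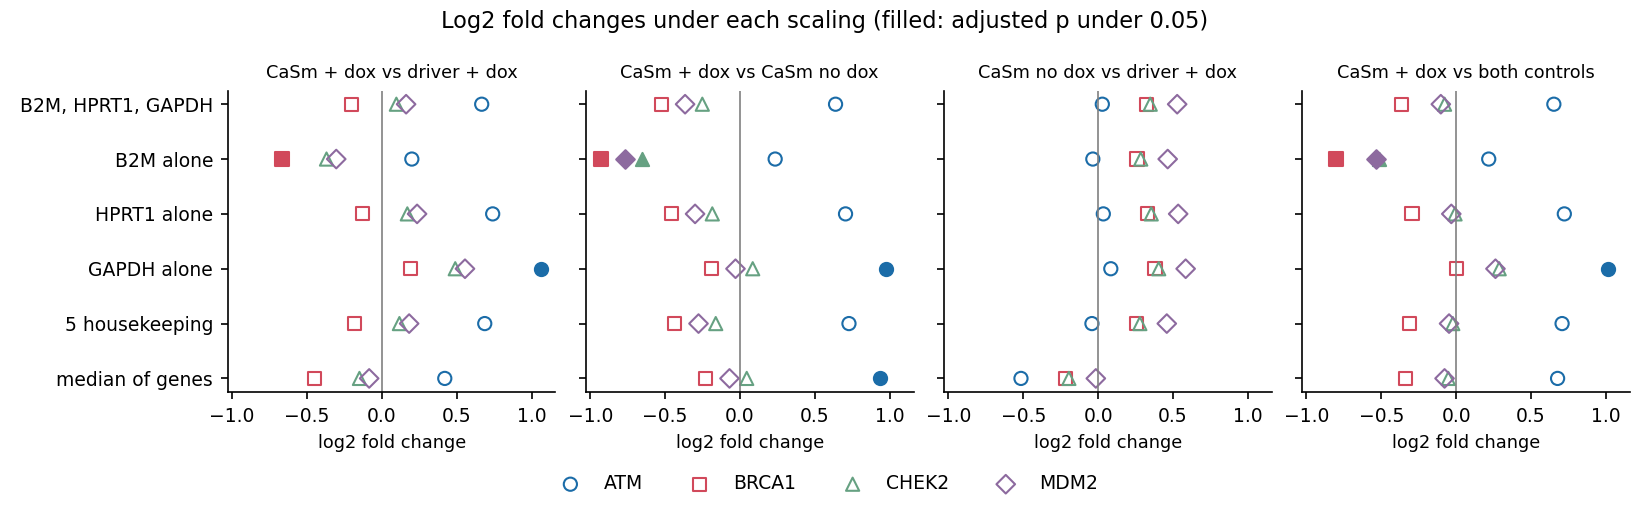
Log2 fold change (x axis) of each gene under 6 choices of scaling genes, in 4 comparisons, with filled symbols for an adjusted p-value under 0.05 from limma. ATM lies to the right of BRCA1, CHEK2 and MDM2 in each comparison of induced cells, and filled symbols appear with B2M alone, GAPDH alone and the plate median. Rescaling shifts all 4 genes alike, so the distances between them within a panel are fixed and do not test the scaling.

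By correlation of levels over the 6 plates, across 75 other genes with a Ct under 35, the nearest gene to CHEK2 was MDM2 (Pearson r = 0.99). MET and MCAM followed for both CHEK2 (0.91 and 0.88) and MDM2 (0.90 and 0.90). BRCA1 was nearest to APAF1 (0.995), ITGA1 (0.98) and PIK3R1 (0.98), and ATM to HTATIP2 (0.95), ITGA4 (0.91) and CASP8 (0.88). ATM and BRCA1 had a correlation of −0.02. Plates share scaling offsets and conditions, so these values are descriptions. With each plate centred on its median gene, MDM2 remained the nearest to CHEK2 but for ANGPT2 and MET (r = 0.79), HTATIP2 was still the nearest to ATM (0.92), and APAF1 came second to PIK3R1 for BRCA1 (0.86 and 0.87).

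Of 6 p53 target genes measured (CDKN1A, BAX, FAS, TNFRSF10B, APAF1 and SERPINB5), 1 rose and 2 fell in induced against driver cells with an adjusted p-value under 0.05, beside 23.5% of all genes called. This list and the next were chosen with earlier results of these data known, and their counts are descriptions. TNFRSF10B, a death receptor for TRAIL, rose 2.78-fold (log2 fold change 1.48, SE 0.27, limma adjusted p = 0.0025). Its log2 fold change was 0.73 (SE 0.27, limma adjusted p = 0.0746) against non-induced cells. In non-induced against driver cells TNFRSF10B was at 0.75 (SE 0.27, limma adjusted p = 0.141). FAS, the death receptor of Fas ligand, fell 2.55-fold (limma adjusted p = 0.0031), and SERPINB5, which encodes maspin, fell 1.77-fold (limma adjusted p = 0.0428). Against non-induced cells SERPINB5 did not fall, with a log2 fold change of 0.11 (SE 0.26). In non-induced against driver cells SERPINB5 was at −0.94 (SE 0.26, limma adjusted p = 0.0538). The authors report that their real-time PCR did not bear out the fall of FAS seen on the array, while it did for SERPINB5. The Ct of SERPINB5 was late, 32.53 to 33.97 on the 6 plates. That of CDKN2A, which Panc-1 cells are known to lack, was much the same, 32.11 to 33.86. A fold change at such a Ct may hold background signal, which was not tested here. Against non-induced cells 1 of the 6 passed, beside 24.1% of all genes. It was APAF1, the apoptosome scaffold, which fell 1.95-fold (adjusted p = 0.0412). FAS also fell 2.13-fold in non-induced against driver cells (limma adjusted p = 0.0284), the only one of the 6 to pass between the controls, beside 7.06% of all genes. This call was lost with the run as a block (limma adjusted p = 0.203) and held in 7 of 11 tested alternatives and in 2 of 6 fits with a plate left out, those without an induced plate. The calls for SERPINB5 and APAF1 depended on the settings, passing in 3 of 10 and in 6 of 11 tested alternatives. With any 1 of the 6 plates left out SERPINB5 did not pass, and APAF1 did not pass without non-induced plate 1 or 2 or induced plate 2. CDKN1A, which encodes the cyclin-dependent kinase inhibitor p21, had a log2 fold change of 0.06 (SE 0.25) against driver cells and 0.20 (SE 0.25) against non-induced cells. The median of the list was −0.29 against driver cells and −0.07 against non-induced cells, beside −0.08 and −0.21 over all genes.

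Among 8 checkpoint and MDM2 pathway partners (CDC25A, CDK2, CDK4, CCNE1, E2F1, RB1, CDKN2A and AKT1), none rose and 2 fell against driver cells, a share close to the 23.5% of all genes called. CDC25A, the phosphatase that CHK2 marks for degradation, fell 2.03-fold (log2 fold change −1.02, SE 0.32, limma adjusted p = 0.0389), and E2F1, an S phase transcription factor, fell 1.92-fold (adjusted p = 0.0389). The authors report that their real-time PCR bore out the fall of E2F1 against driver cells. Against non-induced cells 3 of 8 fell, beside 24.1% of all genes: CDC25A 3.34-fold, E2F1 2.91-fold and CCNE1, which encodes cyclin E1, 1.91-fold (adjusted p = 0.0303 for the last). Against driver cells the calls for CDC25A and E2F1 each held in 6 of 11 tested alternatives. They were lost with HPRT1 alone (limma adjusted p = 0.115 for both), GAPDH alone (0.172 and 0.222), a Ct limit of 40 (0.122 and 0.109), only the plates compared (0.082 and 0.0504) and no moderation. With a plate left out they held in 2 of 6 fits, and were lost without either non-induced plate, driver plate 2 or induced plate 2. Against non-induced cells both held in 10 of 11 alternatives and in 5 of 6 fits with a plate left out, all but the one without non-induced plate 1 (limma adjusted p = 0.0933 for both). CCNE1 held in 6 of 11 alternatives, not with HPRT1 alone, GAPDH alone or the plate median among others, and in 3 of 6 fits, not without either non-induced plate or induced plate 2. The median of the list was −0.26 against driver cells and −0.40 against non-induced cells, and over the 7 genes without CDKN2A, which Panc-1 cells are known to lack, a choice made after seeing the data, it was −0.14 and −0.42. CDKN2A, whose ARF product inhibits MDM2, had late Ct values of 32.1 to 33.9 on the 6 plates. AKT1, a kinase that phosphorylates MDM2, had a log2 fold change of −0.14 (SE 0.28) against driver cells.

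**Figure D5:**
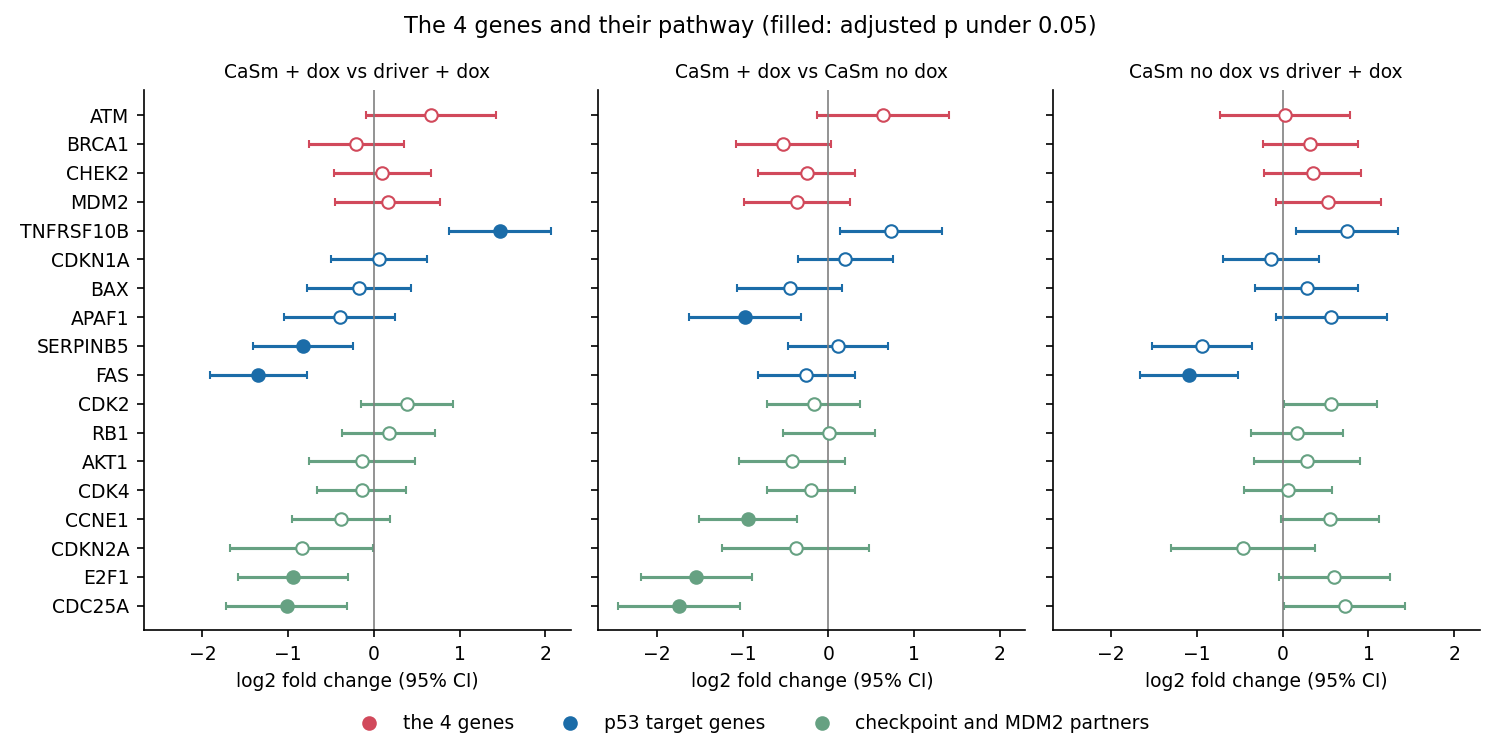
Log2 fold change (x axis) with its 95% confidence interval from limma for the 4 genes, 6 p53 target genes and 8 checkpoint and MDM2 partners, with filled points for an adjusted p-value under 0.05. No point of the 4 genes is filled, while TNFRSF10B, FAS, SERPINB5, E2F1 and CDC25A are filled against driver cells.

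RefSeq promoter windows (300 bases, 250 before to 50 after a start, GRCh38.p14) were read for the pathway elements for which these genes are known. All 4 genes matched, with 9 windows. A p53 site, taken as adjacent copies of the half-site consensus on either strand with at most 2 mismatches in 20 bases and both core C and G letters kept, was found in 0.285% of 35116 windows. Windows of one gene can overlap. The p53 site was in the internal promoter of MDM2, 94 bases before the start, and, among 12 pathway genes with a window, in that of FAS. The E2F-type words TTCCCGC and TTGGCGC were searched on both strands and are in 6.55% and 3.04% of windows. The first is in a BRCA1 window, and the second in the upstream MDM2 windows and in those of CDC25A and E2F1. The stretches of 60 bases below show these matches other than that of the upstream MDM2 windows, with MDM2 and BRCA1 beside pathway genes that fell in at least 1 comparison, 5′ to 3′ on the gene's strand and with the matched letters in capitals. In CDC25A the match on the other strand overlaps the one shown.
MDM2 (chr12:68808903-68808962, + strand): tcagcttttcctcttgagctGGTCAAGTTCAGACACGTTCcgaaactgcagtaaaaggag
FAS (chr10:88991289-88991348, + strand): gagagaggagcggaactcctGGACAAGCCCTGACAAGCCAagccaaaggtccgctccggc
BRCA1 (chr17:43125378-43125437, − strand): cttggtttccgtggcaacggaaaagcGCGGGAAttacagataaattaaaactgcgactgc
CDC25A (chr3:48188427-48188486, − strand): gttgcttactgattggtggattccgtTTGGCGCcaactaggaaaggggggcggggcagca
E2F1 (chr20:33686386-33686445, − strand): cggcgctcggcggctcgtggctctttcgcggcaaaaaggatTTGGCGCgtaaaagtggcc
A match is a description of these letters and not of binding. For the genes with the p53 site, the log2 fold change against driver cells was 0.16 (SE 0.28) for MDM2 and −1.35 (SE 0.26) for FAS, and against non-induced cells it was −0.37 (SE 0.28) and −0.26 (SE 0.26). For BRCA1 it was −0.20 (SE 0.25) against driver cells and −0.53 (SE 0.25) against non-induced cells. For CDC25A these values were −1.02 (SE 0.32) and −1.74 (SE 0.32), and for E2F1 −0.94 (SE 0.29) and −1.54 (SE 0.29). The differences between these genes were not tested.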

How the data were processed

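The authors reverse transcribed the RNA, amplified it on SYBR Green PCR arrays in a Roche Lightcycler, and deposited the Ct of 89 genes on 6 plates in PCR cycles, without normalization. How the threshold was set is not given in the sources used here. A deposited table of the authors' own signed fold changes was not used. Conditions were read from the sample labels. Ct values above 35 were set to 35 and the plate mean of B2M, HPRT1 and GAPDH was subtracted. These 3 genes, and genes at the limit on every plate compared, were left out, and limma 3.58.1 (R 4.3.3) was fitted to −ΔCt of all others over all 6 plates with 3 condition means (3 residual degrees of freedom), with moderated variances (eBayes), and p-values were adjusted by Benjamini-Hochberg over all genes tested at a threshold of 0.05. Permutation tests used scipy 1.17.1 in Python 3.11.15, and plots used matplotlib 3.10.9. The genes and pathway lists were chosen with earlier results of these data known. Named genes were the 4 genes, the members of both lists and the 3 nearest genes by correlation. Of the p53 target list, BAI1 had no row. Alternatives were other scaling genes, linear averaging, a limit of 40 on Ct, dropping genes whose mean Ct was above 30, fits to the compared plates alone or with the run as a block, other variance models, run 2 alone and leaving out each plate. The control wells were not analysed here.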

Additional observations from a re-analysis of the deposited data

How the results depend on the processing

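With 2 plates a condition, the number of plates limits the precision, and a p-value that misses the threshold does not show that levels were equal. Values are log2 fold changes. No alternative gave a call for any of the 4 genes in non-induced against driver cells. In induced against driver cells, B2M alone gave −0.67 for BRCA1, −0.37 for CHEK2 and −0.30 for MDM2. Against non-induced cells it gave −0.93, −0.66 and −0.77, against both controls −0.80, −0.51 and −0.54, and between the controls −0.035 for ATM. GAPDH alone gave 1.06, 0.97 and 1.02 for ATM against driver cells, non-induced cells and both controls, 0.19 for BRCA1 against driver cells, 0.085 for CHEK2 against non-induced cells, and 0.29 for CHEK2 and 0.26 for MDM2 against both controls. For ATM the value against both controls was a call (limma adjusted p = 0.0039), with 23 of all 85 genes called. The 5 housekeeping genes gave −0.041 and linear averaging −0.046 for ATM between the controls. The plate median gave −0.15 for CHEK2 and −0.085 for MDM2 against driver cells, 0.94 for ATM and 0.045 for CHEK2 against non-induced cells, and −0.52, −0.22, −0.20 and −0.015 for ATM, BRCA1, CHEK2 and MDM2 between the controls. Scaling to BRCA1, CHEK2 and MDM2, chosen after seeing the data, gave 1.02 for ATM against non-induced cells, 0.83 against both controls and −0.37 between the controls. Run 2 alone gave −0.18, −0.55, −0.28 and −0.36 for ATM, BRCA1, CHEK2 and MDM2 against driver cells, 0.0083, −0.65, −0.35 and −0.50 against both controls, −0.75 for BRCA1 against non-induced cells and −0.38 for ATM between the controls. The cause was not tested.

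With the replicate block for the run, CHEK2 was at −0.20 and MDM2 at −0.23 against driver cells and ATM at −0.60 between the controls, with no call for any of the 4 genes, and the count of all genes called between the controls was 2 in place of 6. The run mark is shared by 2 pairs of tet-on CaSm plates, whose differences between runs had a correlation of −0.17 over 76 genes. A crossed pairing, chosen after seeing the data, gave 10 calls against driver cells and 2 between the controls.

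Without each plate in turn, the range against driver cells was 0.20 to 1.14 for ATM, −0.40 to −0.01 for BRCA1, −0.15 to 0.34 for CHEK2 and −0.13 to 0.45 for MDM2. Against non-induced cells it was 0.26 to 1.01 for ATM, −0.72 to −0.33 for BRCA1, −0.39 to −0.12 for CHEK2 and −0.60 to −0.13 for MDM2. Between the controls it was −0.44 to 0.50 for ATM, 0.17 to 0.48 for BRCA1, 0.11 to 0.59 for CHEK2 and 0.24 to 0.81 for MDM2, and against both controls 0.28 to 1.03 for ATM, −0.56 to −0.17 for BRCA1, −0.21 to 0.058 for CHEK2 and −0.34 to 0.13 for MDM2.

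The number of all genes called was 20 against driver cells, 20 against non-induced cells, 6 between the controls and 19 against both controls. In this order it was 44, 42, 9 and 57 with B2M alone, 11, 6, 2 and 16 with HPRT1 alone, 10, 8, 1 and 13 with a Ct limit of 40, and 5, 4, 1 and 4 without moderation. Only the plates compared gave 11 against driver cells. With a plate left out it ranged from 11 to 17, 3 to 21, 1 to 9 and 13 to 25. The pathway genes that were called kept their sign under every alternative run.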
